A study of Mus musculus with 9 samples.

Results

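The Rab genes encode small GTPases that direct membrane traffic, and 59 of the 22001 genes counted in cultured mouse macrophages carry a Rab symbol. Members were taken by symbol alone: Rab, a number, and at most a paralog letter and a further digit. Expression was measured by RNA sequencing of bone marrow-derived macrophages of C57BL6 mice, phagocytes grown in culture from marrow, with 3 libraries in each of 3 groups. One group was labelled as given Pam3CSK4 at 100 µg/ml together with 3SL at 100 µl/ml (codes A2plus, B2plus and C2plus), one as given Pam3CSK4 at 100 µg/ml alone (D1, D2 and D3), and one as untreated with PBS (A2, B2 and C2), each for 6 h. Pam3CSK4 is a synthetic lipopeptide that activates Toll-like receptor 2 with its partner receptor. 3SL is read from the series title as 3'-sialyllactose, a milk oligosaccharide, although the treatment tag of those libraries writes CSL. The library names also write Pamc4 for A2plus, B2plus and C2plus but Pamc3 for D1, D2 and D3. The descriptions of both groups name Pam3CSK4, and the difference in name was not settled. Neither the age of the mice nor the number of animals or cultures behind a group was given, and the p-values therefore speak of the spread among these libraries, which can be technical.

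A Rab protein cycles between a GTP-bound form on a membrane and a GDP-bound form in the cytosol. Exchange factors load GTP, GTPase-activating proteins speed its hydrolysis, a dissociation inhibitor returns the prenylated protein to the cytosol, and effectors such as tethers and motor adaptors are recruited by the GTP-bound form. Each compartment has its own members, and in macrophages they are known for their part in phagosome maturation, receptor traffic and cytokine secretion.

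The inflammatory genes went against the group labels, so each group is called below by its label only. Il1b, the gene of interleukin-1 beta, stood at 8136 ± 565 CPM (counts per 1e6 counts of a library, scaled with TMM factors) in the 3SL-labelled libraries, 6.23 ± 1.68 CPM in the Pam3CSK4-labelled libraries and 10160 ± 457 CPM in the untreated-labelled libraries (SD, n = 3 each). Tnf stood at 1267 ± 58.2 CPM in the 3SL-labelled, 18.4 ± 0.67 CPM in the Pam3CSK4-labelled and 1704 ± 46.0 CPM in the untreated-labelled libraries. Toll-like receptor agonists are known to raise both genes. The Pam3CSK4-labelled libraries are also the ones whose codes begin with D, and the label and whatever that letter stands for cannot be told apart. Macrophage markers (18 of 18 with counts) summed to 28843 to 29527 CPM in 3SL-labelled, 22994 to 23382 in Pam3CSK4-labelled and 29671 to 30394 in untreated-labelled libraries. Neutrophil and progenitor markers (14 of 14 with counts) summed to 827 to 860 CPM in 3SL-labelled, 467 to 598 in Pam3CSK4-labelled and 876 to 890 in untreated-labelled libraries. Single genes of both lists went both ways in Pam3CSK4-labelled against untreated-labelled libraries, by the edgeR test used below. Of 18 macrophage markers 7 were higher and 8 lower. Of 13 neutrophil and progenitor markers tested 5 were higher (Elane, Mpo, Prtn3, Retnlg and Mmp8) and 6 lower. Of all genes 39.0% were higher and 35.9% lower. The erythroid, mast cell and platelet list (10, with Mcpt4 at 0 in each group) reached 383 to 430 CPM in 3SL-labelled, 245 to 258 in Pam3CSK4-labelled and 496 to 536 in untreated-labelled libraries. Dendritic cell markers (10, Cd209a at 0 in the 3SL-labelled group) summed to 7.45 to 9.50 CPM in 3SL-labelled, 3.92 to 6.14 in Pam3CSK4-labelled and 10.7 to 12.5 in untreated-labelled libraries. Lymphocyte markers (10, Ncr1 at 0 in the 3SL-labelled group and Ncr1 and Cd3e in the Pam3CSK4-labelled group) summed to 9.35 to 11.7, 11.4 to 13.7 and 10.4 to 12.2 CPM in the 3SL-labelled, Pam3CSK4-labelled and untreated-labelled libraries, and stromal markers (9 of 9 with counts) to 13.4 to 15.8, 5.40 to 5.76 and 16.0 to 18.2 CPM in the 3SL-labelled, Pam3CSK4-labelled and untreated-labelled libraries. The part of these lists in the Rab results was not tested, and in bulk RNA fewer cells of a type and less RNA per cell cannot be told apart.

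Every Rab gene had at least 1 count in some library, and 48 of the 59 passed the filter on low counts. Rab33a passed only through the 3SL-labelled libraries, and Rab27b only through 3SL-labelled and untreated-labelled ones. For these members the filter itself favoured the direction of the difference. The total count per library ran from 7472482 to 43980309, so 3 counts corresponded to 0.0746 to 0.422 CPM, and these limits cover counting error only. The 11 members that did not pass the filter had between 6 (Rab17) and 115 (Rab37) counts over all 9 libraries, and none of them exceeded 1.49 CPM in any library. They were Rab17 and Rab25, known from polarised epithelia, the neuronal and secretory Rab3b, Rab26 and Rab37, the Golgi-located Rab30, and Rab9b, Rab36, Rab39b, Rab40b and Rab42. Rab25 had no count in the 3SL-labelled libraries, 3 counts in the Pam3CSK4-labelled libraries and 5 in the untreated-labelled libraries. Rab9b had 6 counts in the 3SL-labelled group, none in the Pam3CSK4-labelled group and 12 in the untreated-labelled group, whereas Rab17 had 1 in the 3SL-labelled, 5 in the Pam3CSK4-labelled and none in the untreated-labelled group. No fold is given for any of them. The 59 members together took 0.550% of the counts in each 3SL-labelled library, 0.592% to 0.602% in the Pam3CSK4-labelled and 0.544% to 0.547% in the untreated-labelled libraries. After TMM scaling their sum was 5772 to 5834 CPM in the 3SL-labelled, 5182 to 5275 CPM in the Pam3CSK4-labelled and 5903 to 5944 CPM in the untreated-labelled libraries, so the order of the groups depends on the scaling.

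Of the members tested, 25 averaged 5 or more on the log2 CPM scale and 8 averaged under 2. The levels per length, as CPM per kilobase of exon (RPKM), differed by orders of magnitude between members, and 10 members held 71.4% of the summed level. Rab32, which acts in the biogenesis of lysosome-related organelles and in phagosomes, stood highest in 3SL-labelled libraries at 215 ± 1.95 RPKM and in untreated-labelled libraries at 250 ± 3.72, but ranked 3 in Pam3CSK4-labelled libraries at 125 ± 6.06 (SD, n = 3 each). Rab7, the Rab of late endosomes and lysosomes, had 182 ± 2.65, 198 ± 1.56 and 189 ± 2.30 RPKM in 3SL-labelled, Pam3CSK4-labelled and untreated-labelled libraries. Rab5c, an early endosome Rab, had 172 ± 9.05 RPKM in 3SL-labelled, 177 ± 1.40 in Pam3CSK4-labelled and 175 ± 5.23 in untreated-labelled libraries, and in the 3SL-labelled group its distance from Rab7 was about as large as its own spread. Rab1a, which acts between the endoplasmic reticulum and the Golgi, ranked 5 in all 3 groups. Rab10 ranked 4 in the 3SL-labelled, 11 in the Pam3CSK4-labelled and 4 in the untreated-labelled libraries, and Rab20 ranked 12 in the 3SL-labelled, 24 in the Pam3CSK4-labelled and 10 in the untreated-labelled libraries. Rab7b moved the other way, with rank 22 in the 3SL-labelled, 7 in the Pam3CSK4-labelled and 23 in the untreated-labelled libraries.

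**Figure D1:**
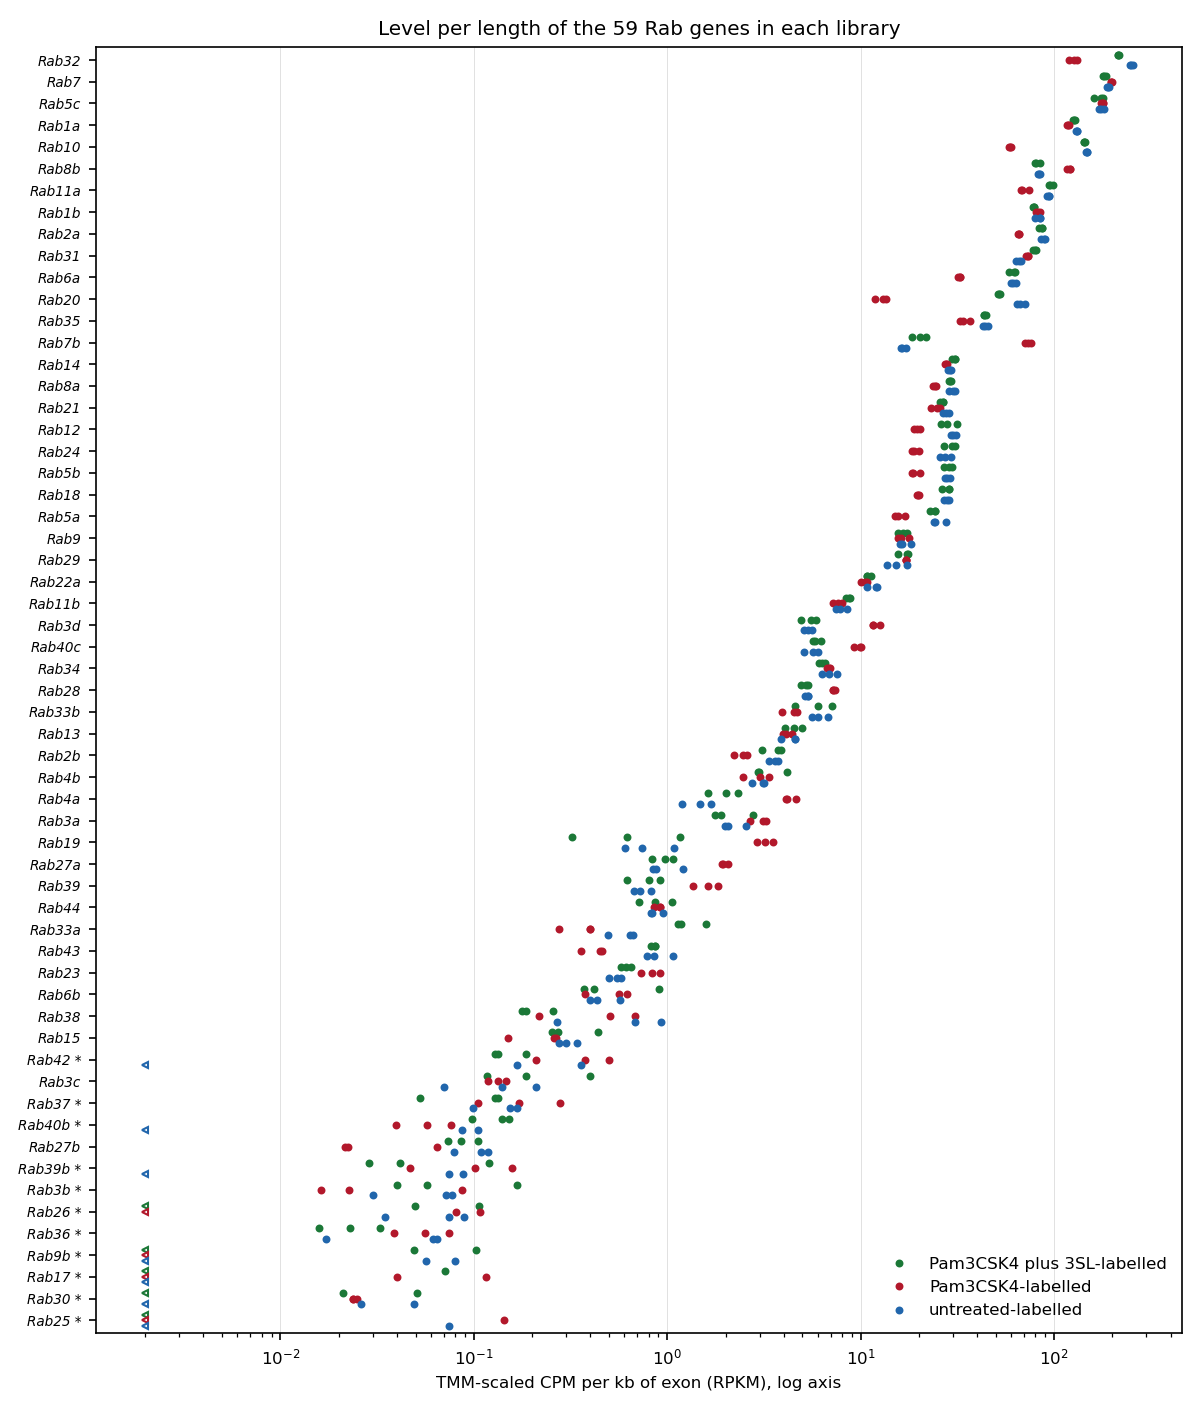
Level of each Rab gene per kilobase of exon in each of the 9 libraries (log axis), ordered by the mean over groups; an asterisk marks the 11 members that were not tested and an open triangle at the left edge a group with at least 1 library at 0 counts. Rab32, Rab7 and Rab5c are at the top, and Rab20 and Rab7b show the widest separation of the Pam3CSK4-labelled libraries among members above 10 RPKM.

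Between the Pam3CSK4-labelled and the untreated-labelled libraries, members moved in both directions, with Rab20, Rab10 and Rab32 among the lower and Rab7b, Rab4a and Rab3d among the higher. By edgeR's quasi-likelihood test at an adjusted p under 0.05, 13 of the 48 tested members (27.1%) were higher, where 39.0% of all 11469 genes tested were, and 20 (41.7%) were lower, where 35.9% of all genes were; with library size as the only scaling these counts became 24 higher and 14 lower. TMM factors equalise the bulk of genes between libraries, which library size alone does not do. Library size only moved the median of all genes by 0.34 on the log2 scale, against 0.03 with the TMM factors, and raised the higher share of all called genes to 74.3%, against 52.0%. Under all 3 scalings tried (TMM, DESeq2 size factors and library size), 12 members were called higher (37.6% of all genes were) and 14 lower (20.8% of all genes). The median log2 change of the members was -0.11, against 0.03 for all genes, and their median absolute change was 0.48, against 0.45. A called change of at least 2-fold was met by 11 members (22.9%), where 24.0% of all genes met it. Of these, 6 were higher, with 13.2% of all genes so called, and 5 lower, with 10.8% of all genes. None of these shares was tested against the background, nor were the counts by compartment given below.

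Rab20 had the largest fall. It acts in phagosome and macropinosome maturation, and lies on chromosome 8 (11453518 to 11478710, minus strand, GRCm38). It had 18.1, 16.4 and 18.9 CPM in the Pam3CSK4-labelled libraries D1, D2 and D3, and 92.9, 98.3 and 89.2 CPM in the untreated-labelled libraries A2, B2 and C2. All Pam3CSK4-labelled libraries lay far under all untreated-labelled ones, and the log2 change was -2.41 (SE 0.06), 5.33-fold, with an adjusted p of 2.91e-23 by the edgeR test. A share of 25.6% of its exon bases overlaps the lncRNA gene E230013L22Rik on the opposite strand. Of the other early endosome and phagosome members, Rab5a and Rab5b, which drive early endosome fusion, changed by -0.65 (SE 0.05) and -0.55 (SE 0.05). Rab21, which is known from integrin traffic, and Rab22a, of early and recycling endosomes, were lower by small amounts (-0.18 and -0.17, SE 0.04 and 0.05), and both calls turned to higher with library size only. Rab31, which carries cargo between the Golgi and endosomes, was higher (0.15, SE 0.03). Rab5c had 391, 385 and 390 CPM in Pam3CSK4-labelled libraries and 384, 396 and 373 CPM in untreated-labelled libraries (chromosome 11, 100715009 to 100738215, minus strand). Its groups overlapped, and the 95% interval of the log2 difference was -0.06 to 0.09. Rab14, of endosomes and phagosomes, had 380, 371 and 373 CPM in Pam3CSK4-labelled and 399, 392 and 386 CPM in untreated-labelled libraries, which did not overlap, but its adjusted p was 0.0584. In total 1 of 8 members of this group was higher and 5 were lower, where 39.0% and 35.9% of all genes were. With library size only 5 were higher and 3 lower.

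Late endosome, lysosome and autophagosome members were led by Rab7b, with 3 of 5 tested called higher and 1 lower (4 and 1 with library size only). Of all genes 39.0% were higher and 35.9% lower. Rab7b, reported to carry Toll-like receptors toward lysosomal degradation and to act between late endosomes and the Golgi, lies on chromosome 1 (131688695 to 131715439, plus strand). It had 340, 351 and 326 CPM in the Pam3CSK4-labelled libraries, and 75.1, 79.1 and 75.3 CPM in the untreated-labelled libraries. The groups lay far apart, with a log2 change of 2.14 (SE 0.05), 4.41-fold, and an adjusted p of 7.29e-25 by the edgeR test. Rab7 (chromosome 6, 87999106 to 88045270, minus strand) had 515, 515 and 522 CPM in Pam3CSK4-labelled libraries and 487, 493 and 499 CPM in untreated-labelled libraries. That difference of 0.07 (SE 0.03) reached an adjusted p of 0.0404 and lost its call without any one of D1, D2, D3, A2, B2 or C2, with adjusted p of 0.0502 to 0.134 by the same test. Rab39, linked to autophagy, was at 5.44, 4.02 and 4.81 CPM in Pam3CSK4-labelled libraries and 2.15, 2.44 and 2.01 CPM in untreated-labelled libraries, a change of 1.04 (SE 0.19). Rab24, also linked to autophagy, was lower (-0.54, SE 0.06), but 62.4% of its exon bases overlap Prelid1, which itself changed by -0.58, and reads of the pair cannot be assigned with certainty. Rab9, which returns receptors from late endosomes to the Golgi, was not called (-0.04, SE 0.07).

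Members of recycling and delivery to the plasma membrane were split, with 2 of 11 higher and 5 lower (4 and 3 with library size only). The shares of all genes were 39.0% higher and 35.9% lower. Rab10 (chromosome 12, 3247428 to 3309969, minus strand), which carries GLUT4 and, in macrophages, TLR4 to the cell surface, had 210, 205 and 207 CPM in Pam3CSK4-labelled libraries, and 516, 521 and 520 CPM in untreated-labelled libraries. The values within a group were nearly equal, and the change was -1.32 (SE 0.03), 2.50-fold, with an adjusted p of 9.23e-24 by the edgeR test. Rab8b, a paralog of the exocytic Rab8a, averaged 566 ± 11.2 CPM in Pam3CSK4-labelled and 396 ± 5.08 CPM in untreated-labelled libraries (SD, n = 3 each) and was higher (0.52, SE 0.03), whereas Rab8a was lower (-0.31, SE 0.04). Rab4a, of rapid recycling from early endosomes (chromosome 8, 123805985 to 123835287, plus strand), had 7.20, 7.29 and 8.10 CPM in Pam3CSK4-labelled libraries and 2.09, 2.58 and 2.97 CPM in untreated-labelled libraries. It was 2.98-fold higher (log2 1.58, SE 0.17, adjusted p = 1.3e-09 by the edgeR test), and its paralog Rab4b, 65% of whose exon bases lie in an overlapping gene, changed by -0.04 (SE 0.15) without a call. Rab11a, Rab12 and Rab35, of recycling endosomes, were lower (-0.42, -0.64 and -0.36, SE 0.04, 0.05 and 0.04), but Rab35 and Rab8a had no call under library size only. Rab11b had 44.2, 46.8 and 49.2 CPM in Pam3CSK4-labelled libraries and 45.7, 47.7 and 52.3 CPM in untreated-labelled libraries (chromosome 17, 33742484 to 33760530, minus strand). Those ranges overlap, the interval of the difference ran from -0.17 to 0.08, and 13.6% of its 50-base stretches recur in other genes, among them Rab11b-ps2. Rab13, of tight junctions, and Rab15 were not called.

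Of the endoplasmic reticulum and Golgi members, 7 of 11 were lower and 1 was higher (5 and 3 with library size only). Among all genes 35.9% were lower and 39.0% higher. Rab6a, the Rab of retrograde Golgi transport, averaged 121 ± 1.82 CPM in Pam3CSK4-labelled and 228 ± 6.79 CPM in untreated-labelled libraries (SD, n = 3 each; log2 -0.92, SE 0.04). Rab2a, Rab2b, Rab18 of lipid droplets, and the autophagy-linked Rab33b changed by -0.43, -0.57, -0.49 and -0.46, Rab33b without a call under library size only or at equal depth. Rab2b shares 64% of its exon bases with overlapping genes, among them Tox4, which changed by -0.55. Rab43 (chromosome 6, 87788853 to 87812164, minus strand), which acts in Golgi transport and, in mouse dendritic cells, in cross-presentation, had 2.48, 2.53 and 1.99 CPM in Pam3CSK4-labelled libraries and 5.95, 4.70 and 4.35 CPM in untreated-labelled libraries. It was 2.13-fold lower (log2 -1.09, SE 0.19, adjusted p = 5.67e-06 by the edgeR test), and 75.4% of its exon bases overlap Gm45140, which had 11 counts in all. Rab1a (chromosome 11, 20201432 to 20226856, plus strand) had 454, 447 and 443 CPM in Pam3CSK4-labelled libraries and 492, 499 and 498 CPM in untreated-labelled libraries. This fall (-0.15, SE 0.03) became a rise of 0.16 with library size only, so its direction rests on the scaling. Rab1b (chromosome 19, 5099205 to 5107072, minus strand) had 188, 182 and 192 CPM in Pam3CSK4-labelled and 193, 193 and 180 CPM in untreated-labelled libraries, overlapping ranges with an interval of -0.09 to 0.06. Rab19, a sparsely counted Golgi-located member, had 63, 97 and 60 counts in Pam3CSK4-labelled libraries and 15, 47 and 16 counts in untreated-labelled libraries, and was higher by 2.08 (SE 0.25). Rab6b and Rab33a were not called.

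Secretory and lysosome-related organelle members gave 3 of 9 higher and 2 lower (4 and 2 with library size only), where 39.0% and 35.9% of all genes were. Rab32 (chromosome 10, 10545002 to 10558265, minus strand) had 306, 278 and 296 CPM in Pam3CSK4-labelled libraries and 595, 577 and 586 CPM in untreated-labelled libraries, so that no library of one group came near the other. The change was -1.0 (SE 0.03), 2.0-fold, with an adjusted p of 4.38e-20 by the edgeR test. Rab3d, which acts on secretory granules (chromosome 9, 21907491 to 21918192, minus strand), had 48.7, 48.8 and 52.5 CPM in Pam3CSK4-labelled libraries and 22.5, 23.5 and 21.4 CPM in untreated-labelled libraries, a rise of 1.14 (SE 0.07). Rab27a (chromosome 9, 73044854 to 73097629, plus strand), needed for melanosome transport and for granule release by cytotoxic lymphocytes, had 8.0, 7.46 and 7.49 CPM in Pam3CSK4-labelled libraries and 4.69, 3.28 and 3.39 CPM in untreated-labelled libraries. Its rise was 1.04 (SE 0.15), while its paralog Rab27b, at 3, 4 and 9 counts in Pam3CSK4-labelled and 20, 34 and 11 counts in untreated-labelled libraries, was lower (-1.43, SE 0.47, adjusted p = 0.00436 by the edgeR test). Rab3a, of synaptic vesicles, was higher (0.46, SE 0.15), a call lost without B2 (adjusted p = 0.0792 by the same test) and without D2 (0.0520). Rab29, known for recruiting the kinase LRRK2, was not called (0.10, SE 0.08) but was without B2 (0.22, adjusted p = 0.0247 by the same test), and Rab38, Rab3c and Rab44 were not called. Of the remaining members, Rab23 of Hedgehog signalling, Rab28 of photoreceptor cilia and Rab40c, part of a ubiquitin ligase, were higher by 0.65, 0.45 and 0.78 (SE 0.14, 0.07 and 0.07), and Rab34 was not called. At equal depth the calls of Rab23 and Rab3a were lost.

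**Figure D2:**
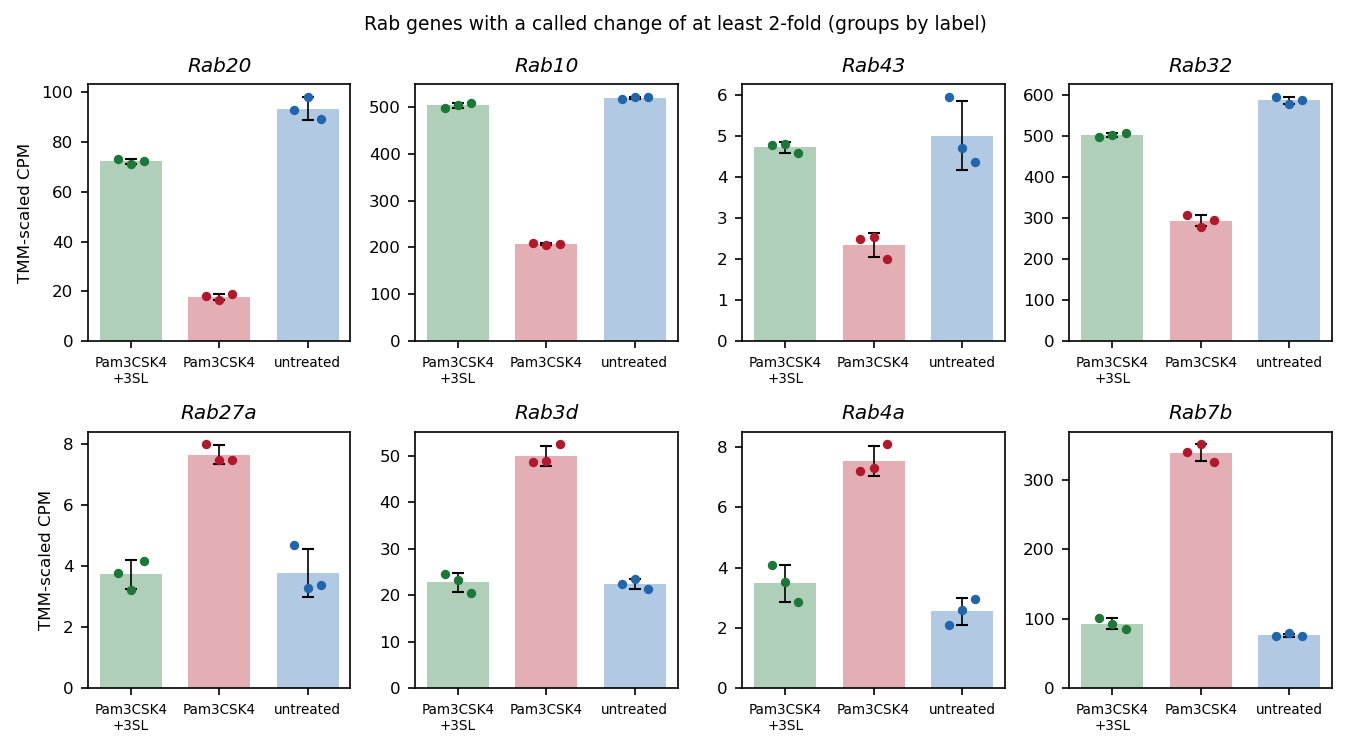
TMM-scaled CPM of the 8 Rab genes with a called change of at least 2-fold that average 2 or more on the log2 CPM scale; points are the 3 libraries of each labelled group, bars their mean and error bars the SD. In each panel the 3 Pam3CSK4-labelled libraries lie outside the range of the other 6 libraries, lower for Rab20, Rab10, Rab43 and Rab32 and higher for Rab27a, Rab3d, Rab4a and Rab7b.

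**Figure D3:**
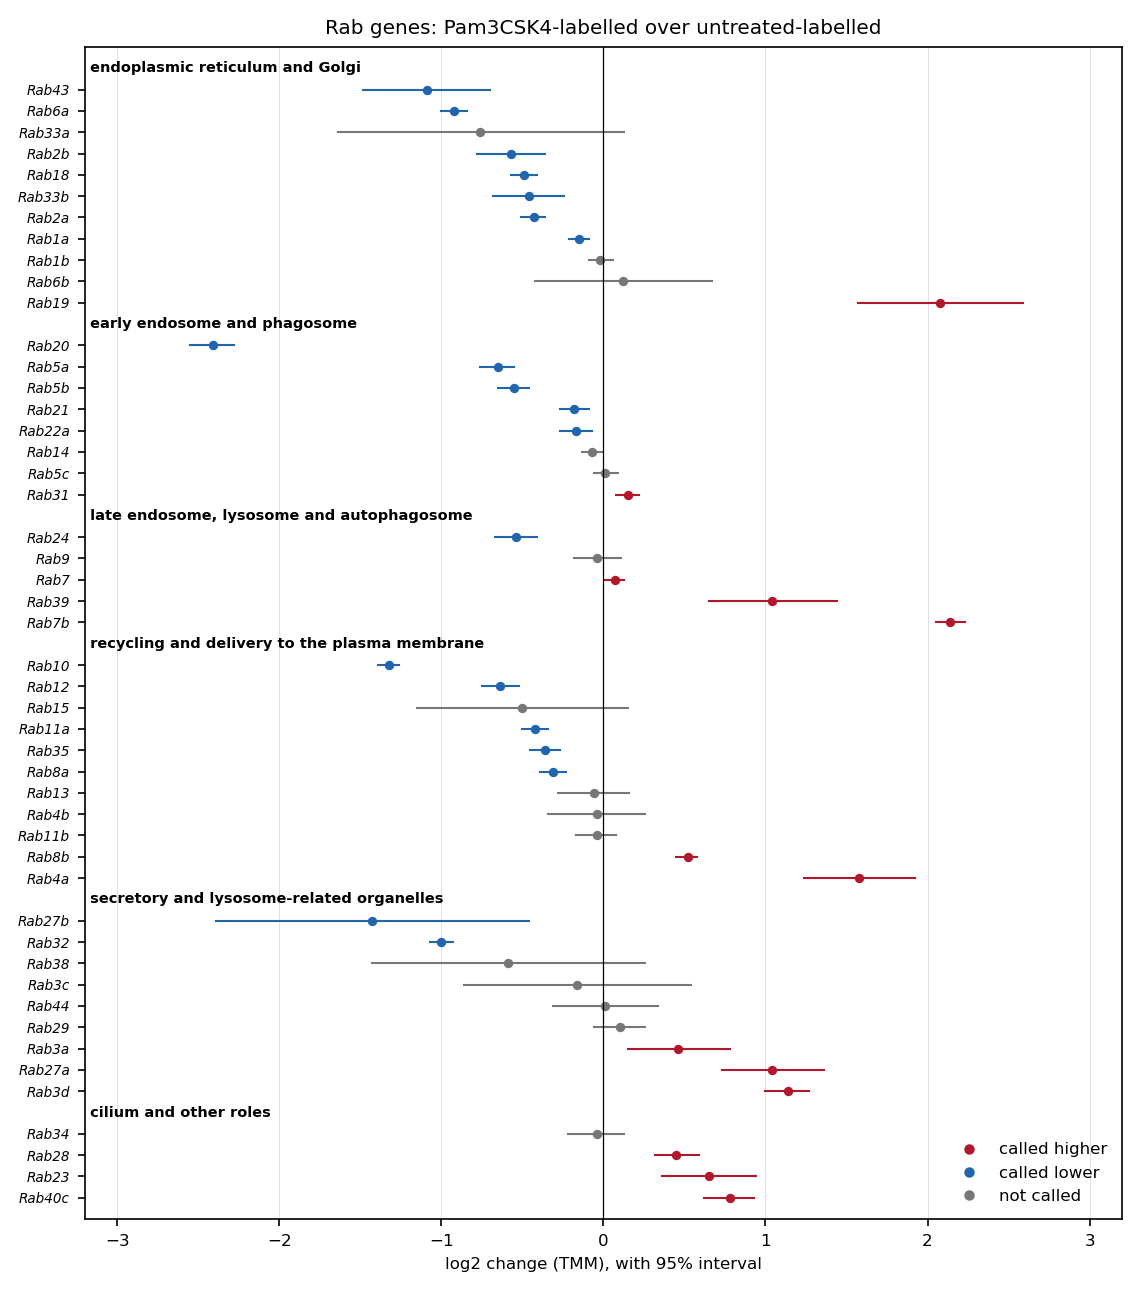
log2 change of the 48 tested Rab genes in Pam3CSK4-labelled over untreated-labelled libraries with TMM scaling, grouped by the compartment each is known for, with 95% intervals; red marks the 13 called higher, blue the 20 called lower and grey the rest. With library size as the only scaling the counts are 24 higher and 14 lower, and the points near 0 change sides.

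The promoters of 4 members are shown because their genes moved in opposite directions, Rab20, Rab5a and Rab10 being lower and Rab3d higher in Pam3CSK4-labelled libraries. Each window runs from 250 bases before to 50 bases after a RefSeq gene start (GRCm38.p6), 5′ to 3′ on the gene's strand: chr8:11478591-11478890 (minus) for Rab20, chr17:53478984-53479283 (plus) for Rab5a, chr12:3309920-3310219 (minus) for Rab10 and chr9:21918134-21918433 (minus) for Rab3d. Capitals mark CACGTG, an E-box that reads the same on both strands.
Rab20: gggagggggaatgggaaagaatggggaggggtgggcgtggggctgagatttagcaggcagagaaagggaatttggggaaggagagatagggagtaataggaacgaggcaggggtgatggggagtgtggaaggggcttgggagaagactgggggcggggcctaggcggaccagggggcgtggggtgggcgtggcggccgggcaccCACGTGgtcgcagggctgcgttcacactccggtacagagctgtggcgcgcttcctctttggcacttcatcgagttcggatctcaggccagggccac
Rab5a: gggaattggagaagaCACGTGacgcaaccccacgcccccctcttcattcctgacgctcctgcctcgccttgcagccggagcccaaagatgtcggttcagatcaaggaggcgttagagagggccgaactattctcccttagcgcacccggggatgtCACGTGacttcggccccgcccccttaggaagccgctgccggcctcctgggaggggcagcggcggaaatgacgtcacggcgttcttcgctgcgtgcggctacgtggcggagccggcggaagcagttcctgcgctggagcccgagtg
Rab10: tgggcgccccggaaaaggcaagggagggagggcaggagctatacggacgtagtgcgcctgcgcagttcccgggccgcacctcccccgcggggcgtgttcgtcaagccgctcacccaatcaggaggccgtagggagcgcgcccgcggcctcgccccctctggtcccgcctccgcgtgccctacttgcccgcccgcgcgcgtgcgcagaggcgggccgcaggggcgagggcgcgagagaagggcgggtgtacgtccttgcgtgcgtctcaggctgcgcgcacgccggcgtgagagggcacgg
Rab3d: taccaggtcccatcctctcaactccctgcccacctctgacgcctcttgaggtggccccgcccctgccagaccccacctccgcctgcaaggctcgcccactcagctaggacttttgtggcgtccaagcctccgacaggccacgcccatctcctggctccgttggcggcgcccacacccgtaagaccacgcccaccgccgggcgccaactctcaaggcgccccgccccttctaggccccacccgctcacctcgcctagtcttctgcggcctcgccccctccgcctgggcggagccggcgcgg
RefSeq windows were searched for 48 of the 59 members, and the other members were not searched. All genes and all windows here mean those searched, from 27025 genes. CACGTG was found in 6 of the 48 (12.5%), against 8.09% of 27025 genes: Rab20, Rab5a (at 2 places), Rab21, Rab23, Rab24 and Rab27a. Rab20, Rab5a, Rab21 and Rab24 were lower and Rab23 and Rab27a higher in the Pam3CSK4-labelled libraries. The NF-kB consensus, searched on both strands, matched in Rab15 and Rab28 (4.17% of members, 5.14% of all genes). The median GC content of Rab windows was 61.2%, against 52.7% for all windows. A match is only a description of these letters.

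The 3SL-labelled libraries against the Pam3CSK4-labelled libraries share the Pam3CSK4-labelled libraries with the comparison above, so the values are given for themselves. Members were 24 higher and 12 lower of 48, where 34.7% of all genes were higher and 36.8% lower; with library size only the counts became 14 higher and 22 lower. Under all 3 scalings 14 members were higher (21.2% of all genes) and 12 lower (35.7% of all genes). The median log2 difference was 0.13, against -0.02 for all genes, and library size alone moved the median of all genes to -0.29. A change of at least 2-fold was called for 11 members, as for 23.0% of all genes: 5 higher (10.5% of all genes) and 6 lower (12.5% of all genes).

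Rab20 had 73.2, 71.3 and 72.6 CPM in the 3SL-labelled libraries and 18.1, 16.4 and 18.9 CPM in the Pam3CSK4-labelled libraries, without overlap (log2 2.03, SE 0.07, adjusted p = 1.69e-20 by edgeR's quasi-likelihood test). Rab10 had 498, 503 and 508 CPM in 3SL-labelled and 210, 205 and 207 CPM in Pam3CSK4-labelled libraries (1.28, SE 0.03). Rab32 had 498, 502 and 507 CPM in 3SL-labelled and 306, 278 and 296 CPM in Pam3CSK4-labelled libraries (0.78, SE 0.04). These 3 members were higher in every 3SL-labelled library than in any Pam3CSK4-labelled one. Rab43, at 4.78, 4.80 and 4.57 CPM in 3SL-labelled libraries against 2.48, 2.53 and 1.99 CPM in Pam3CSK4-labelled libraries, was 2.01-fold higher. Rab33a, of the Golgi, had 13, 14 and 13 counts in 3SL-labelled libraries and 4, 8 and 6 counts in Pam3CSK4-labelled libraries (1.80, SE 0.44). Because Rab33a passed the filter only through the 3SL-labelled libraries, its call, included in the counts above, was partly selected. Rab27b had 8, 8 and 9 counts in 3SL-labelled libraries and 3, 4 and 9 in Pam3CSK4-labelled libraries, and its call (1.29, adjusted p = 0.0275 by the edgeR test) was lost without D1, D2, A2plus or C2plus, with adjusted p of 0.0584 to 0.128.

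Rab7b was lower in the same comparison, at 101, 93.1 and 85.4 CPM in 3SL-labelled libraries against 340, 351 and 326 CPM in Pam3CSK4-labelled libraries (log2 -1.87, SE 0.05). Rab3d had 24.5, 23.3 and 20.5 CPM in 3SL-labelled and 48.7, 48.8 and 52.5 CPM in Pam3CSK4-labelled libraries (-1.14, SE 0.08). Rab27a had 3.79, 3.23 and 4.17 CPM in 3SL-labelled and 8.0, 7.46 and 7.49 CPM in Pam3CSK4-labelled libraries (-1.04, SE 0.19). In each of these members the groups were separate. Rab4a had 4.08, 3.52 and 2.85 CPM in 3SL-labelled libraries and 7.20, 7.29 and 8.10 CPM in Pam3CSK4-labelled libraries (-1.13, SE 0.19), and Rab19 and Rab39 were lower (-2.29 and -1.02). Rab8b, Rab28, Rab40c, Rab23 and Rab3a were lower (-0.55, -0.48, -0.73, -0.44 and -0.48). By role, 8 of 11 endoplasmic reticulum and Golgi members, 6 of 8 early endosome members and 6 of 11 recycling members were higher, with 1, 0 and 2 lower; with library size only these 3 groups gave 6 higher and 3 lower, 3 and 5, and 3 and 2. Of the late endosome group 1 was higher and 3 lower, of the secretory group 3 and 3, and of the remaining group 0 and 3 (1 and 4, 1 and 4, and 0 and 4 with library size only). The call of Rab3c (0.88) was lost without D1, D2 or C2plus, with adjusted p of 0.0519 to 0.571 by the edgeR test, and its difference was 0.26 without C2plus, which held 47 of its counts. That of Rab21 (0.11) was lost without D1, D2, A2plus or C2plus (0.0573 to 0.309). Rab3a lost its call without D2, A2plus or B2plus (0.0690 to 0.145), Rab23 without D2 or B2plus (0.0923 and 0.0655) and Rab11b without D1 (0.0667), while Rab38 (-1.07) gained one without D2 (-1.48, adjusted p = 0.0359). At equal depth Rab11b, Rab21, Rab23, Rab33b, Rab3a and Rab3c lost their calls, and Rab23 also did by DESeq2's test. Rab14, Rab1a, Rab21 and Rab31 were called the opposite way with library size only.

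The 3SL-labelled and the untreated-labelled libraries differed in 4 of 48 members. Rab31 and Rab7b were higher, where 3.83% of all genes were, and Rab20 and Rab32 were lower, where 5.11% of all genes were. No member was called with a change of at least 2-fold, as 0.174% of all genes were. Rab20 had 73.2, 71.3 and 72.6 CPM in 3SL-labelled libraries and 92.9, 98.3 and 89.2 CPM in untreated-labelled libraries, and was 1.3-fold lower (log2 -0.38, 95% interval -0.49 to -0.27, adjusted p = 1.23e-05 by edgeR's quasi-likelihood test). Rab32 had 498, 502 and 507 CPM in 3SL-labelled and 595, 577 and 586 CPM in untreated-labelled libraries (-0.22, interval -0.29 to -0.15). Rab31 (chromosome 17, 65651729 to 65772752, minus strand) had 308, 303 and 295 CPM in 3SL-labelled and 242, 252 and 256 CPM in untreated-labelled libraries (0.27, interval 0.20 to 0.34). Rab7b had 101, 93.1 and 85.4 CPM in 3SL-labelled and 75.1, 79.1 and 75.3 CPM in untreated-labelled libraries (0.27, interval 0.16 to 0.38, adjusted p = 0.000786 by the same test). The groups did not overlap for any of the 4. They also did not overlap for Rab1a, Rab1b, Rab7, Rab10, Rab14, Rab23, Rab33a and Rab38, which were not called. All 4 calls held under all 3 scalings. The shares of all genes without overlap, or with a call kept under all 3 scalings, are not given for this comparison. Neither is therefore read as a trait of the Rab genes.

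The other 44 members were not called between these groups, and their intervals say how far they could differ. For 40 of 48 members the 95% interval lay within a 1.5-fold change in either direction, and for 45 within 2-fold. The exceptions to the last were the sparsely counted Rab33a, Rab38 and Rab3c. Rab33a had 13, 14 and 13 counts in 3SL-labelled and 9, 31 and 7 counts in untreated-labelled libraries (1.04, interval 0.33 to 1.76, adjusted p = 0.0598 by the edgeR test). It passed the filter only through the 3SL-labelled libraries, which favours a difference in this direction. Rab38, which serves lysosome-related organelles, had 2, 3 and 4 counts in 3SL-labelled and 23, 43 and 4 counts in untreated-labelled libraries (-1.66, interval -2.95 to -0.36, adjusted p = 0.0587), and was called without C2 (-1.84, adjusted p = 0.0300) or D2 (-1.65, 0.0489), by the same test. Among the members above, Rab10 differed by -0.04 (interval -0.11 to 0.02), Rab3d by -0.01 (-0.17 to 0.16), Rab27a by 0.01 (-0.39 to 0.41), Rab43 by -0.08 (-0.45 to 0.28) and Rab4a by 0.45 (0.02 to 0.87).

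**Figure D4:**
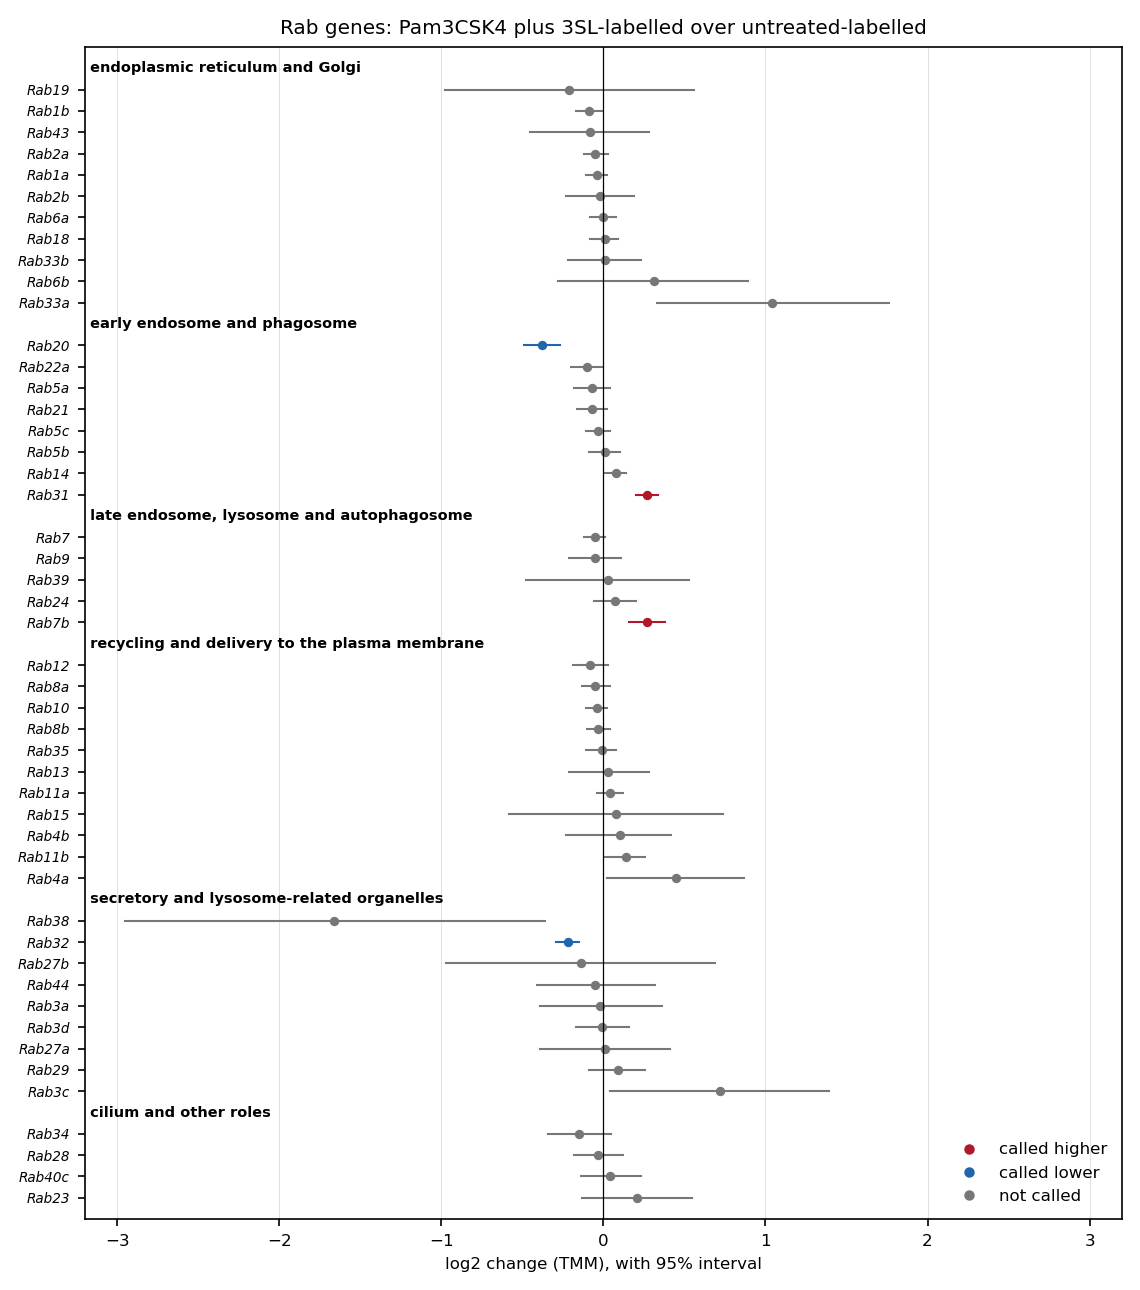
log2 change of the 48 tested Rab genes in 3SL-labelled over untreated-labelled libraries with TMM scaling, by compartment, with 95% intervals, on the same axis as the plot of the Pam3CSK4-labelled over untreated-labelled libraries. The 4 called members, Rab20 and Rab32 in blue and Rab31 and Rab7b in red, lie within 0.4 of 0, and only sparsely counted members have wide intervals.

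Within some subfamilies, but not all, the balance of paralogs differed between labelled groups, as each one's share of the subfamily's summed RPKM. The difference in change between paralogs was not tested. Rab7b made up 10.6%, 10.1% and 9.21% of Rab7b plus Rab7 in the 3SL-labelled libraries, 27.1%, 27.8% and 26.1% in the Pam3CSK4-labelled libraries, and 8.01%, 8.31% and 7.85% in the untreated-labelled libraries. The shares of D1, D2 and D3 were far above the rest. Rab4a made up 37.2% ± 2.97 of Rab4a plus Rab4b in 3SL-labelled, 59.3% ± 3.61 in Pam3CSK4-labelled and 32.5% ± 5.29 in untreated-labelled libraries (SD, n = 3 each). Because 65% of the exon bases of Rab4b lie in an overlapping gene, its level and the size of these shares are uncertain. Rab27b gave 8.40% ± 1.20 of Rab27a plus Rab27b in 3SL-labelled, 1.80% ± 1.23 in Pam3CSK4-labelled and 9.53% ± 1.37 in untreated-labelled libraries. Rab5c was the main Rab5 paralog throughout, at 76.6% ± 1.03 in 3SL-labelled, 83.5% ± 0.832 in Pam3CSK4-labelled and 76.7% ± 0.885 in untreated-labelled libraries. Rab8b was the main Rab8 paralog, at 73.8% ± 0.959 in 3SL-labelled, 83.3% ± 0.0982 in Pam3CSK4-labelled and 73.7% ± 0.970 in untreated-labelled libraries. Rab3d, the main Rab3 paralog, gave 68.9% ± 7.57 in 3SL-labelled, 78.9% ± 1.95 in Pam3CSK4-labelled and 69.1% ± 3.22 in untreated-labelled libraries. Rab1b gave a share of Rab1a plus Rab1b of 38.2% ± 0.349 in 3SL-labelled, 41.1% ± 0.757 in Pam3CSK4-labelled and 38.9% ± 0.981 in untreated-labelled libraries. In the same order of groups, Rab11b gave 8.28%, 9.86% and 7.83% of Rab11a plus Rab11b. Rab2b gave 4.01%, 3.57% and 3.89% of Rab2a plus Rab2b, with overlapping libraries. Rab22a gave 12.1%, 12.6% and 15.1% of Rab22a plus Rab31, so there the untreated-labelled group stood apart. The shares of the sparsely counted Rab6b (with Rab6a) and Rab38 (with Rab32) overlapped between groups.

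**Figure D5:**
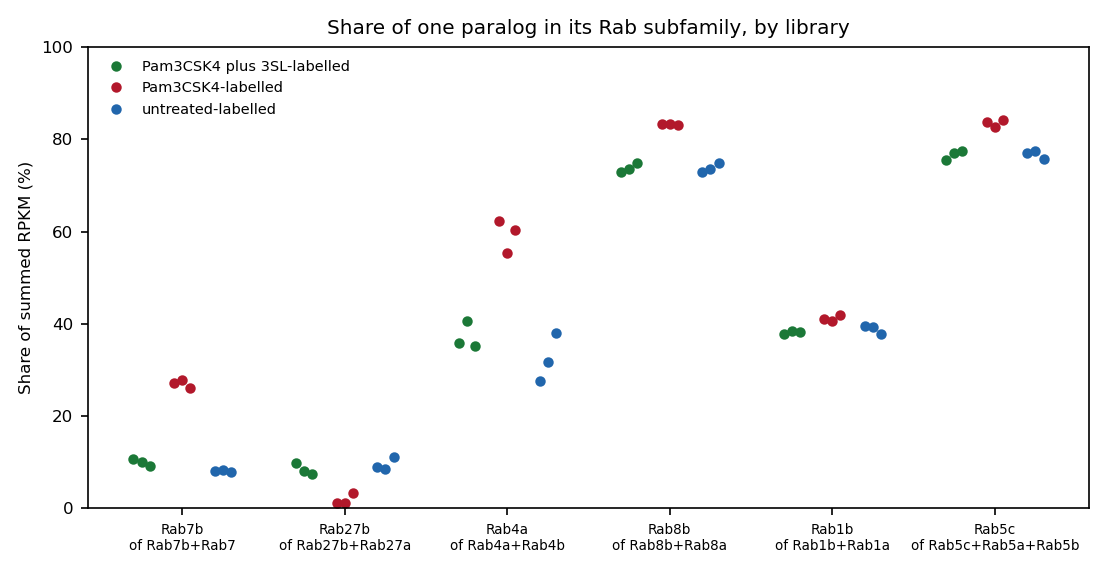
Share of 1 paralog in the summed RPKM of its Rab subfamily (percent, linear axis from 0 to 100), 1 point per library, with 3SL-labelled, Pam3CSK4-labelled and untreated-labelled libraries from left to right. Rab7b, Rab4a, Rab8b and Rab5c take a larger share and Rab27b a smaller one in the Pam3CSK4-labelled libraries, with no overlap with the other groups.

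Among the genes that regulate Rab proteins or are bound by them, called members went in both directions; for comparison, 39.0% of all genes tested were higher and 35.9% lower in Pam3CSK4-labelled against untreated-labelled libraries, and no list was tested against these shares. In Pam3CSK4-labelled against untreated-labelled libraries, 12 of 40 tested exchange factors were higher and 19 lower (median log2 -0.12, against 0.03 for all genes), which library size only turned to 22 higher and 5 lower. Of those averaging 2 or more on the log2 CPM scale, the limit used for each list here, Dennd2c (3.77), Rab3il1 (2.74), an exchange factor that acts on Rab8, and Dennd4c (1.66) rose most, and Ric1 (-1.49), part of a Rab6 exchange factor, Rabgef1 (-1.14), which acts on Rab5, and C9orf72 (-0.78) fell most. Of 36 GTPase-activating proteins tested 17 were higher and 9 lower (median 0.20; 26 and 6 with library size only). Tbc1d2 (3.00), which acts on Rab7, Tbc1d4 (2.81), which acts on Rab10 in adipocytes, and Tbc1d31 (1.61) led the rises, and Tbc1d23, Tbc1d13 and Tbc1d10b fell by 0.94, 0.93 and 0.92. Of the 9 genes of prenylation and membrane cycling 4 were higher and 3 lower (median -0.11; 5 and 2 with library size only). Chm, which presents Rab proteins for prenylation, changed by -0.43. Among 47 effectors tested 19 were higher and 17 lower (median 0.05; 28 and 14 with library size only). Mical1 (2.51), Plekhm1 (1.90), which links Rab7 to lysosome fusion, and Wdr91 (1.51) rose most. Rab11fip1, an effector of Rab11, fell by 3.96, Rilpl2, an effector of Rab8 and Rab10, by 2.19, and Inpp5b by 1.49. The lists hold genes that other processes also use.

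Between the 3SL-labelled and the Pam3CSK4-labelled libraries, where 34.7% of all genes were higher and 36.8% lower, the exchange factors gave 17 higher and 12 lower (7 and 17 with library size only), the GTPase-activating proteins 10 and 17 (6 and 23), the prenylation and cycling genes 3 and 3 (1 and 6), and the effectors 18 and 17 (14 and 25). Between the 3SL-labelled and the untreated-labelled libraries, where 3.83% of all genes were higher and 5.11% lower, 1 exchange factor was higher and 1 lower, 4 GTPase-activating proteins were higher and 0 lower, no prenylation or cycling gene was called, and 2 effectors were higher and 1 lower. Rab3il1 differed by 0.43 (SE 0.07) and Ric1 by -0.22 (SE 0.05), and Appl1, an effector of Rab5, by -0.33 (SE 0.04), each called by the edgeR test.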

How the data were processed

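The raw counts per gene were deposited by the authors in 1 table of the whole series, and 15 columns of other samples in it were not used. The tools named are Subread, featureCounts and HISAT2 2.1.0, with the build hg38, per the submitters' processing notes, while all 22001 identifiers are mouse Ensembl identifiers; the strand setting is not given in the sources used here, so reads of overlapping or antisense genes cannot be told apart. RNA was extracted with Trizol and made into libraries with a NEBNext Ultra kit, per the labels' protocols. Symbols came from a name table (21909 of 22001 matched) and coordinates and exon lengths from GENCODE M21 on GRCm38, not the authors' build.

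Counts were tested with edgeR 4.0.16 (R 4.3.3): filterByExpr (11469 genes kept), TMM factors, 1 quasi-likelihood fit to all 9 libraries with a mean per group, and Benjamini-Hochberg adjustment over all 11469 genes at a threshold of 0.05. TMM factors were 0.944 to 0.953 in the 3SL-labelled, 1.14 to 1.15 in the Pam3CSK4-labelled and 0.916 to 0.926 in the untreated-labelled libraries. The procedure was run on simulated counts in which few genes changed, balanced in direction. That setting does not cover the broad changes between these groups or the choice of scaling. Chi-square per degree of freedom between libraries of 1 group was 1.83 to 3.10, above sampling noise. Alternatives were other size factors, library size only, no filter, DESeq2 1.42.0, fits of 2 groups, equal depth, the library letter as a block and each library left out. The members, lists and role groups were chosen with earlier results of these data known. CPM of every library is given for members called with a change of at least 2-fold (mean log2 CPM of at least 2), called between 3SL-labelled and untreated-labelled libraries at 1.3-fold or more, among the 5 highest per length, or among the 5 least changed of mean log2 CPM of at least 5; Rab31 and the sparsely counted members given in addition were chosen after their values were seen. Regulators named are, in part, the 3 largest rises and falls of each list among called genes averaging 2 or more in log2 CPM. Some genes of the lists are not reported here by name.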

Additional observations from a re-analysis of the deposited data

How the results depend on the processing

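With library size only, 24 members were called higher in Pam3CSK4-labelled against untreated-labelled libraries. In 3SL-labelled against Pam3CSK4-labelled libraries 14 were then higher and 22 lower, and in 3SL-labelled against untreated-labelled libraries 4 were higher and 1 changed at least 2-fold. The last count was also 1 with no filter on low counts, and 0 to 1 with each library left out (1 without C2 or D2). At equal depth 7 members, not 11, met 2-fold in Pam3CSK4-labelled against untreated-labelled libraries, where Rab32 stood at -0.97 and Rab27a at 0.94, both still called, and 44 of 48 members were tested. Signs turned as follows. Under library size only, Pam3CSK4-labelled against untreated-labelled gave 0.16 for Rab1a, 0.30 for Rab1b, 0.27 for Rab11b and 0.25 for Rab14, 3SL-labelled against Pam3CSK4-labelled -0.17 for Rab1a, -0.09 for Rab11b and -0.13 for Rab14, and 3SL-labelled against untreated-labelled 0.03 for Rab3d and 0.01 for Rab5c. Called members with no value above also turned: Rab21 (0.14) and Rab22a (0.14) in Pam3CSK4-labelled against untreated-labelled, and Rab21 (-0.17), Rab31 (-0.15) and Rab8a (-0.01, not called) in 3SL-labelled against Pam3CSK4-labelled libraries. The values next given were not called with all libraries. Rab5c in Pam3CSK4-labelled against untreated-labelled libraries gave -0.01 with DESeq2 size factors and with the DESeq2 test, -0.00 in the fit of 2 groups, -0.02 at equal depth and -0.01 to 0.04 with a library left out; Rab1b gave 0.00 with no filter and -0.04 to 0.01. In 3SL-labelled against untreated-labelled libraries Rab27a gave -0.00 with DESeq2 size factors and with no filter, -0.02 with DESeq2, -0.15 at equal depth and -0.17 to 0.17 with a library left out. Rab3d gave 0.08 at equal depth and -0.05 to 0.07, Rab43 -0.17 to 0.04 and Rab5c -0.06 to 0.01 with a library left out. The cause was not tested. Of all values of single genes over these settings, 31 turned sign, and 589 kept direction and side of the threshold. A further 11 gained a call and 13 lost one, and values without an adjusted p were counted as kept.

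Whether the letters A, B and C pair the samples was not settled. Deviations from the group mean correlated at 0.00, 0.05 and -0.01 for same-lettered libraries, and at -0.07 to 0.06 for the others. With 3 libraries per group and counting noise in each, such values cannot exclude a pairing. With the letter as a replicate block 2 members were higher and 2 lower in 3SL-labelled against untreated-labelled libraries, the same 4 calls, and Rab3d and Rab27a stood at 0.02 and -0.02. Depth limits the members under a mean log2 CPM of 2 and small changes of others: equal depth ended 4 calls in Pam3CSK4-labelled against untreated-labelled (Rab23, Rab33b, Rab3a, Rab7) and 6 in 3SL-labelled against Pam3CSK4-labelled libraries (Rab11b, Rab21, Rab23, Rab33b, Rab3a, Rab3c).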
